A study of Mus musculus with 6 samples.

Results

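The 8 genes described here were Hmgcs1, Idi1, Fdft1, Sqle, Lss, Cyp51 and Hsd17b7, which encode enzymes of cholesterol synthesis, and Insig1, which encodes a regulator of the pathway. They were chosen by gene symbol from the 19938 genes that the array annotation names, and every probe set with one of these symbols was taken, which came to 10 of the 21789 probe sets that carry 1 gene symbol. The list was drawn up with the difference between the genotypes on these same arrays in view. The differences of the 8 genes between genotypes are therefore given as a description without a test. The question was whether Idi1 and Hsd17b7 differed together with the other genes of the pathway or apart from them.

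Heart RNA was read on 6 Affymetrix Mouse Gene 1.0 ST arrays, of which 3 are labelled WT and 3 VAChT KD, all from males aged 3 months. VAChT KD mice carry a homozygous, body-wide knockdown of the vesicular acetylcholine transporter, encoded by Slc18a3, so that the lower expression is not limited to neurons of the heart. For each array 2 RNA samples had been pooled, and neither group was treated. The strain is C57BL/6 in the labels, whereas the study's methods describe mice backcrossed to C57BL6/j for 3 generations, so of mixed background, and name the tissue as ventricle. Values are log2 signals, so that a difference of 1 is a doubling, and the spread between arrays is that between 3 pools in each genotype. In RNA from whole tissue, fewer cells of a type and less RNA per cell cannot be told apart.

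Cholesterol is built from acetyl-CoA through mevalonate, isoprenoids and squalene, and the ring of lanosterol that results is trimmed in several steps to cholesterol. The genes of most of these enzymes are bound by the transcription factor SREBP2, which is held in the endoplasmic reticulum by the Insig proteins while sterols are plentiful and is released when they run short. Heart muscle expresses the pathway although the liver makes most of the cholesterol of the blood, and the isoprenoids made on the way also feed ubiquinone, dolichol and the lipid anchors of small GTPases.

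The 250 bases before the start of 6 of the 8 genes were read from the RefSeq promoters of GRCm38.p6, and 4 are printed here because they hold the contrast that the description turns on: Idi1 and Hsd17b7, whose means differed most between the genotypes, beside Hmgcs1, a textbook SREBP target that differed little, and Insig1. Fdft1 and Sqle are named only. Capitals mark matches on either strand to TCACCNCAC or TCACNCCAC, forms of the sterol regulatory element that TCACCCCAC matches both of, to the E-box CACGTG, and to the CCAAT box, which reads ATTGG on the other strand.
Hmgcs1, chr13:119690101-119690350, plus strand: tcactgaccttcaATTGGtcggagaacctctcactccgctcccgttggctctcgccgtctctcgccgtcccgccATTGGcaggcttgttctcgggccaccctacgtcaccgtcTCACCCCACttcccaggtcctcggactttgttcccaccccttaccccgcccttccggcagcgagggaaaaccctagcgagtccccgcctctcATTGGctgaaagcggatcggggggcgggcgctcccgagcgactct
Idi1, chr13:8885356-8885605, plus strand: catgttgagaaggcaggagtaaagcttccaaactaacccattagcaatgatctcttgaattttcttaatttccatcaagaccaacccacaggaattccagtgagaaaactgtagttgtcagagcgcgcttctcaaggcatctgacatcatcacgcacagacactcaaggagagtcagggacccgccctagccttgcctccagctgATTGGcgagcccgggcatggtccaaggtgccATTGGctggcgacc
Hsd17b7, chr1:169969206-169969455, minus strand: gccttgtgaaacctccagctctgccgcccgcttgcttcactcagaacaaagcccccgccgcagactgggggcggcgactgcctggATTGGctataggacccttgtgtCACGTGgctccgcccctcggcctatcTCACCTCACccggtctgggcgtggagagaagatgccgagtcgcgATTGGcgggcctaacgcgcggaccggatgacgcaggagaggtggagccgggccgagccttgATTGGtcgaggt
Insig1, chr5:28071162-28071411, plus strand: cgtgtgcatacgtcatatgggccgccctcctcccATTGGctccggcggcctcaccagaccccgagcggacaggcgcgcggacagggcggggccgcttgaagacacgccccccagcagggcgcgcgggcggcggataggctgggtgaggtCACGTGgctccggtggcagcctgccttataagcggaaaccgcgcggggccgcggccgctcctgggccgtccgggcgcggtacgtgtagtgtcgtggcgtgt
Hmgcs1 held TCACCCCAC from 137 to 129 bases before its start, which matches both sterol forms, and Hsd17b7 held TCACCTCAC from 117 to 109 bases before its start and an E-box from 143 to 138. Insig1 held an E-box from 101 to 96 bases before its start. Idi1 held 2 CCAAT boxes and none of the other motifs, from 45 to 41 and from 14 to 10 bases before its start, and Lss and Cyp51 held 1 CCAAT box each. Of 27025 genes with a promoter entry, 346 (1.28%) held TCACCNCAC, 331 (1.22%) held TCACNCCAC, 1854 (6.86%) held the E-box and 10133 (37.5%) held a CCAAT box, which all 6 of these genes had. Of 12 other enzymes of cholesterol synthesis with a promoter entry, 0 held either sterol form, 2 held the E-box and 10 held a CCAAT box. The motifs were picked from general knowledge, a match is a description of the letters only, and the window ends at the start of the gene.

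Before the genes of the pathway, the labels were set against the targeted gene. The signal of Slc18a3 was 7.31, 7.42 and 7.11 for WT 1, 2 and 3 against 7.24, 6.77 and 7.58 for VAChT KD 1, 2 and 3, a difference (VAChT KD minus WT) of -0.08 (standard error 0.20, adjusted p = 0.873 from limma). Without the arrays numbered 2 the difference was 0.20 (standard error 0.16), so that its sign turned. The groups overlapped, and whether the probes cover the sequence changed in the mutant allele is not given in the sources used here. Ogdhl, a gene on chromosome 14 like Slc18a3, read 9.60, 7.21 and 10.33 on the WT arrays and 7.06, 10.17 and 7.09 on the VAChT KD arrays, so that the arrays numbered 2 stood with the other genotype. Its difference was -0.94 (standard error 1.03) on all arrays and -2.89 (0.24) without the arrays numbered 2. The differences of the 8 genes and the counts below are for this reason given with and without these 2 arrays, whereas the correlations and the marker levels rest on all 6. The heart label was borne out by 7 cardiomyocyte markers, whose mean log2 signal was 13.94 to 13.97 on WT and 13.24 to 14.03 on VAChT KD arrays, the lowest on the array labelled VAChT KD 1. Array medians were 6.98, 6.93 and 6.91 for WT 1, 2 and 3 and 6.88, 6.89 and 6.84 for VAChT KD 1, 2 and 3. Every WT median was thus above every VAChT KD median, and a small difference between genotypes cannot be told apart from such an offset. Any pair of arrays correlated at 0.982 to 0.994 over all probe sets.

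Idi1 and Hsd17b7 had the largest differences among the 8 genes, both with a higher mean in VAChT KD hearts, and the other 6 genes had a median difference of 0.00 on the log2 scale, between -0.11 for Sqle and 0.25 for Cyp51. Over all 21789 probe sets with 1 symbol the median difference was -0.02. Of the 8 genes, 5 had a higher mean in VAChT KD and 3 a lower one, but the sign of Hmgcs1 and of Lss turned with a further quantile normalization (-0.03 and 0.02), and that of Fdft1 with centring of each array on its median (0.04). At 1.3-fold or more between means stood 1 gene, Hsd17b7, beside 1.73% of all probe sets with 1 symbol. Without the arrays numbered 2 the median of the other 6 was 0.02, with a range from -0.09 to 0.33, beside -0.03 for all probe sets.

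**Figure D1:**
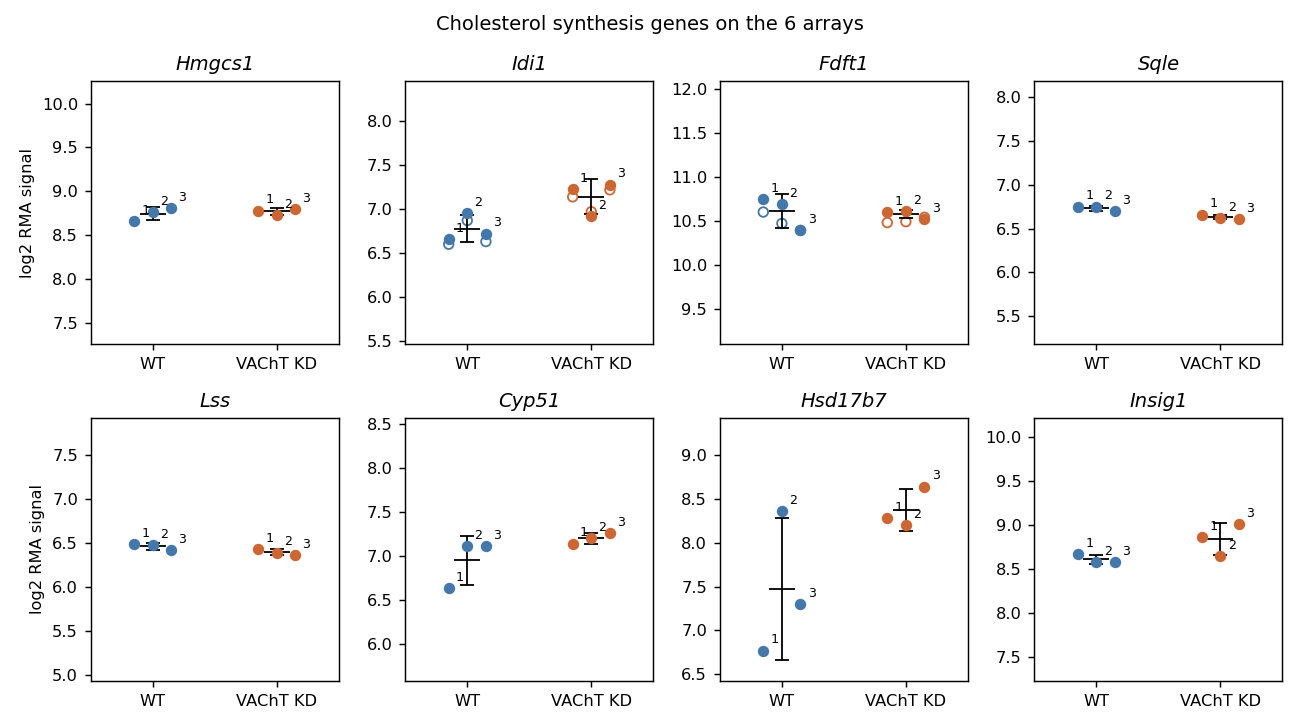
Log2 signal (vertical axis, the same span in each panel) of the 8 genes on the 3 WT arrays (blue) and the 3 VAChT KD arrays (orange), numbered as in the labels. Filled circles are the brighter probe set of each gene, open circles the second probe set of Idi1 and Fdft1, and bars the mean and SD of the filled circles. Hsd17b7 spans 6.77 to 8.36 on the WT arrays, and the array labelled WT 2 lies among the VAChT KD arrays for Hsd17b7 and Idi1.

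Idi1 encodes the isomerase that turns isopentenyl diphosphate into dimethylallyl diphosphate, the starter of every longer isoprenoid chain. Its brighter probe set (10482762) read 6.66, 6.95 and 6.72 on WT 1, 2 and 3 and 7.23, 6.92 and 7.28 on VAChT KD 1, 2 and 3. WT 1 and 3 were low and VAChT KD 1 and 3 high, whereas both arrays numbered 2 lay between them, WT 2 just above VAChT KD 2, so that the groups overlapped. The group means were 6.78 ± 0.15 and 7.14 ± 0.19 (SD, n = 3 arrays each), so that they differed by 0.37 (standard error 0.13), which is 1.29-fold and close to the threshold of 1.3-fold in the study's methods. Without the arrays numbered 2 the difference was 0.56 (standard error 0.12), or 1.48-fold. The second probe set of Idi1 (10403413) gave the same picture, with 6.60, 6.87 and 6.63 on WT and 7.14, 6.97 and 7.22 on VAChT KD arrays. Its groups did not overlap, and the difference was 0.41 (standard error 0.11), or 1.33-fold, and again 0.56 without the arrays numbered 2. Thus the probe sets fell on either side of 1.3-fold while they followed each other at r = 0.98 over the 6 arrays. Both are annotated with the same 4 accessions, so that they are not independent measurements. The RefSeq table places Idi1 on chromosome 13. The 10 probe sets with the nearest identifiers were all of chromosome 13 genes for 10403413 and all of chromosome 2 genes for 10482762, and where the probes of 10482762 lie is not given in the sources used here.

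Hsd17b7 encodes a keto-reductase that completes the removal of methyl groups at carbon 4 of the sterol ring, and it can also reduce estrone to estradiol. It read 6.77, 8.36 and 7.30 on the WT arrays and 8.28, 8.20 and 8.64 on the VAChT KD arrays. The WT arrays lay far apart: WT 2 was as high as the VAChT KD arrays, and WT 1 and 3 lay below all of them. The group means were 7.48 ± 0.81 and 8.37 ± 0.23 (SD, n = 3 arrays each) and differed by 0.90 (standard error 0.36), or 1.86-fold. The SD among the WT arrays ranked 6 of 21789 probe sets. Without the arrays numbered 2 the difference was 1.42 (standard error 0.22), or 2.68-fold. It was 0.54 without WT 1 alone, 1.34 without WT 2 alone and 0.59 with arrays weighted by their fit, so that its size rested on which WT arrays were counted while its sign did not change.

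The remaining enzymes, in the order of the pathway, began with Hmgcs1, which makes HMG-CoA. It read 8.66, 8.76 and 8.81 on WT and 8.78, 8.73 and 8.80 on VAChT KD arrays. All 6 values lay within one narrow band, and the difference was 0.03 (standard error 0.08), or 0.05 without the arrays numbered 2. Fdft1, squalene synthase, which commits isoprenoids to sterols, read 10.75, 10.69 and 10.39 on WT and 10.60, 10.61 and 10.52 on VAChT KD arrays with its brighter probe set. The VAChT KD arrays lay inside the WT range, and the difference was -0.03 (standard error 0.11), or -0.01 without the arrays numbered 2. Its second probe set differed by 0.02 (standard error 0.08). Fdft1 lies on chromosome 14, the chromosome of Slc18a3.

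Sqle, squalene epoxidase, which adds the first oxygen of the sterol, read 6.75, 6.75 and 6.70 on WT and 6.66, 6.62 and 6.61 on VAChT KD arrays. All VAChT KD arrays lay below all WT arrays, by little, with a difference of -0.11 (standard error 0.07), -0.09 without the arrays numbered 2 and -0.03 after a further quantile normalization. Lss, lanosterol synthase, which closes the ring, read 6.49, 6.48 and 6.42 on WT and 6.43, 6.39 and 6.36 on VAChT KD arrays. The groups overlapped, and the difference was -0.07 (standard error 0.07), or -0.06 without the arrays numbered 2. The mean of Lss over all arrays, 6.43, was below the 95th percentile of 1035 probe sets of olfactory receptors (6.5), which stand for background here. That of Sqle was 0.18 above it, so that a change of either would be hard to see at this signal. The means of Idi1 (0.46 above it, and 0.40 for its second probe set) and Cyp51 (0.57 above it) were not far from it either.

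Cyp51, the demethylase that takes off the methyl group at carbon 14 of lanosterol, read 6.63, 7.11 and 7.11 on WT and 7.14, 7.20 and 7.26 on VAChT KD arrays. WT 1 stood far below the rest, and the other WT arrays lay just under the VAChT KD arrays, with no overlap. The difference was 0.25 (standard error 0.14), or 1.19-fold, 0.33 without the arrays numbered 2 and 0.09 without WT 1. Insig1 encodes a protein of the endoplasmic reticulum that holds back SREBP and is itself an SREBP target. It read 8.67, 8.58 and 8.58 on WT and 8.86, 8.65 and 9.01 on VAChT KD arrays. VAChT KD 2 lay within the WT range and the other VAChT KD arrays above it, with a difference of 0.23 (standard error 0.11), or 1.17-fold, 0.30 without the arrays numbered 2 and 0.14 without VAChT KD 3.

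Counted by overlap with the brighter probe set, 1 gene (Cyp51) had all VAChT KD arrays above all WT arrays and 1 (Sqle) all below, and 6 overlapped. Among all 21789 probe sets with 1 symbol, 5.61% had all VAChT KD arrays above and 14.3% all below. Without the arrays numbered 2 the genes above were 4 (Idi1, Cyp51, Hsd17b7 and Insig1) and 1 was below (Sqle), beside 17.2% and 29.7% of all probe sets, with 2 arrays left in each group. By array, WT 1 was the lowest of the 6 for Hmgcs1, Idi1, Cyp51 and Hsd17b7 and the highest for Fdft1, Sqle and Lss. VAChT KD 3 was the highest for Idi1, Cyp51, Hsd17b7 and Insig1 and the lowest for Sqle and Lss. The same arrays had the highest and lowest array medians (6.98 and 6.84) and the lowest weights in limma's fit of array quality (0.505 and 0.66). The part of these in the differences was not tested.

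**Figure D2:**
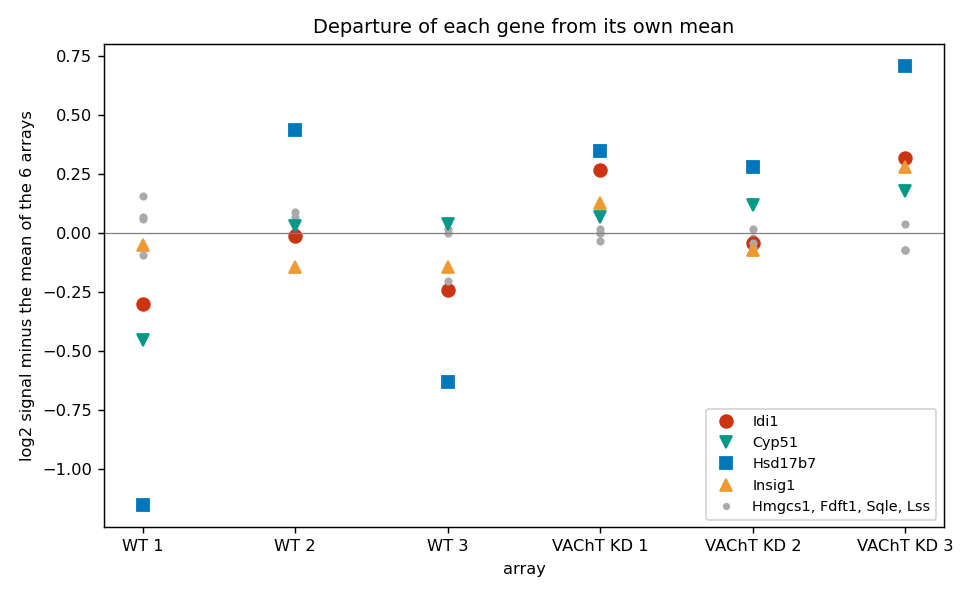
Log2 signal of each gene minus its own mean over the 6 arrays (vertical axis) on each array (horizontal axis). Hsd17b7, Idi1, Cyp51 and Insig1 are drawn in colour, the other 4 genes in grey. Hsd17b7 runs from -1.15 on WT 1 to 0.71 on VAChT KD 3 and Idi1 from -0.30 to 0.32 on the same arrays, while the median of the 6 genes other than these lies within 0.04 of 0.

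Whether Idi1 and Hsd17b7 followed each other and the rest of the list was described by Pearson's r over the 6 arrays, which share both genotype and array quality and carry no test. Idi1 and Hsd17b7 correlated at 0.87, and at 0.75 once each genotype was set to its own mean. Insig1 stood next to Idi1 at 0.83 (0.61 within genotypes), then Cyp51 at 0.69 (0.42) and Hmgcs1 at 0.53 (0.55). Fdft1 had r = -0.14 with Idi1, Lss -0.59 and Sqle -0.68. Around Hsd17b7 the order was another: Idi1 at 0.87 was followed by Cyp51 at 0.85 (0.75 within genotypes), Hmgcs1 at 0.57 and Insig1 at 0.51, and the last fell to 0.04 within genotypes.

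The highest of these values lay in the upper part of all probe sets, but many probe sets stood above them. By likeness to Idi1, Hsd17b7 ranked 572 (percentile 97.4), Insig1 924 (95.8) and Cyp51 2652 (87.8) of 21787 probe sets. By likeness to Hsd17b7, Idi1 ranked 845 (percentile 96.1) and Cyp51 1126 (94.8) of 21788. The median r of the 6 other genes was 0.20 to Idi1 and 0.20 to Hsd17b7, beside -0.16 and -0.10 over all probe sets with 1 symbol. Of the probe sets at or above the median signal, the 5 most like Idi1 were Gnl2, Srfbp1, Plekha1, Dus2 and Nckap5 (r from 0.98 to 1.00), and the 5 most like Hsd17b7 were Bmi1, Capza1, Anp32e, Nmi and Anp32-ps (all r = 0.99). None of these 10 is on a list of the pathway used here. Their differences between genotypes were 0.10 to 0.22 for the first 5 and 0.16 to 0.36 for the second 5, smaller than the 0.37 of Idi1 and the 0.90 of Hsd17b7.

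**Figure D3:**
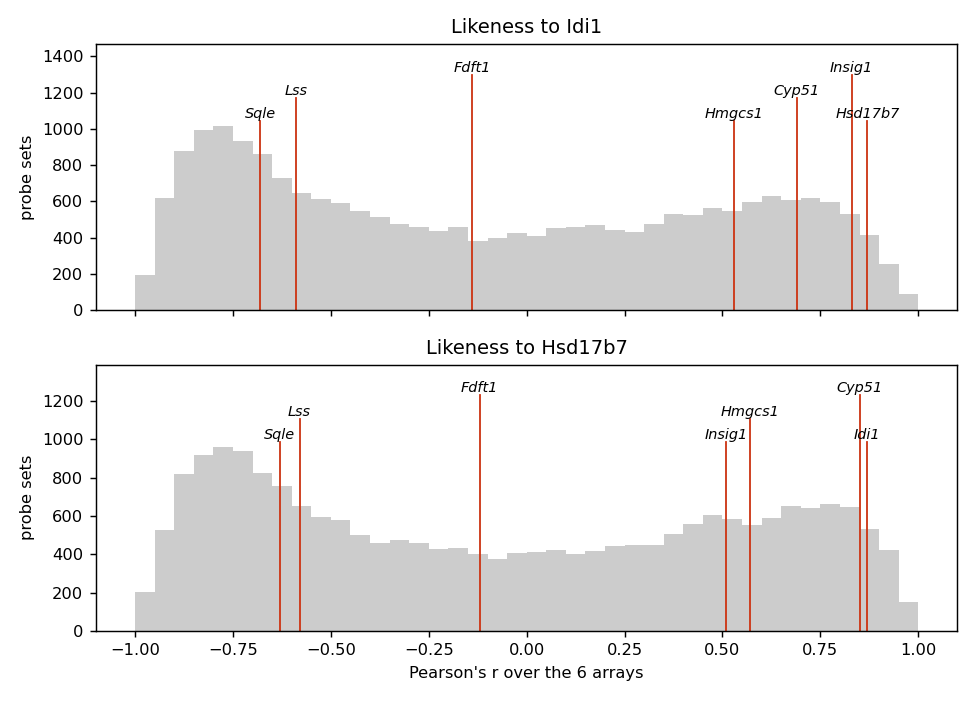
Number of probe sets with 1 gene symbol (vertical axis, grey bars 0.05 wide) by their Pearson's r over the 6 arrays (horizontal axis) with Idi1 (upper panel) or Hsd17b7 (lower panel). Red lines mark the other genes of the list. The bars pile up towards both ends of the axis, and Sqle and Lss lie on the negative side in both panels.

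The genes of the pathway outside the list of 8 were tested with limma, with p-values adjusted over all 35556 probe sets. Of 57 such genes measured in 6 lists, 0 passed both an unadjusted p of 0.05 and 1.3-fold, the thresholds of the study's methods, beside 1.40% of all probe sets with 1 symbol, and 0 passed an adjusted p of 0.05, beside 0% of all. At an unadjusted p of 0.05 without a fold threshold, 1 gene was higher and 2 lower in VAChT KD, beside 9.93% of all probe sets, and with ordinary in place of moderated variances 7 passed that p, beside 8.88% of all. The median difference of the 57 genes was 0.00, with a range from -0.22 to 0.23, and 29 had a higher and 28 a lower mean in VAChT KD. Without the arrays numbered 2, again 0 passed both thresholds, beside 4.74% of all probe sets, and 1 (Hsd17b2) passed the unadjusted p, beside 7.58%. The median of the 57 was then 0.01, with a range from -0.30 (Hsd17b2) to 0.34 (Hsd17b12).

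The 12 other enzymes of cholesterol synthesis had a median difference of -0.03, between -0.14 and 0.17, and 0 passed an unadjusted p of 0.05 in either direction. Tm7sf2, a sterol reductase, differed by -0.14 (standard error 0.08, adjusted p = 0.495 from limma). Msmo1, the oxidase that starts the removal of the carbon 4 methyl groups, which Hsd17b7 completes, differed by 0.17 (standard error 0.10, adjusted p = 0.504 from limma). It read 7.26, 7.53 and 7.40 on WT and 7.60, 7.45 and 7.64 on VAChT KD arrays, an array order close to that of Idi1, and differed by 0.29 (standard error 0.12) without the arrays numbered 2. By r over the 6 arrays Msmo1 stood at 0.95 to Idi1 and 0.94 to Hsd17b7, above each of the 8 genes themselves, and within genotypes at 0.94 and 0.88. Ebp, Nsdhl and Sc5d, picked out after their values were seen, were the other enzymes of the 12 with r above 0, at 0.79, 0.64 and 0.66 to Idi1 and 0.90, 0.74 and 0.75 to Hsd17b7. Their differences were 0.10, 0.07 and 0.10, and 0.13, 0.17 and 0.15 without the arrays numbered 2. Of the 12, 33.3% had r above 0 with Idi1 and with Hsd17b7, beside 44.2% and 46.3% of all probe sets with 1 symbol. The other 8 of the 12 had r below 0 with both genes. They were Mvk, Pmvk, Mvd and Fdps of the early pathway, but also Tm7sf2, Lbr and Dhcr7, which like Ebp, Nsdhl and Sc5d act after Cyp51, and Erg28, so that the sign did not follow the position in the pathway, and the median r of the 12 was -0.45 to Idi1 and -0.52 to Hsd17b7.

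Of the machinery that controls SREBP, 0 of 7 genes passed an unadjusted p of 0.05, and the median difference was 0.04. Rnf139, a ubiquitin ligase of the endoplasmic reticulum that acts on this pathway, differed by 0.12 (standard error 0.09, adjusted p = 0.59 from limma). Srebf2, which encodes SREBP2, differed by 0.05, Srebf1 by -0.06, Scap, the escort of SREBP, by -0.04 (-0.12 without the arrays numbered 2) and Insig2, the other Insig gene, by 0.00. The values of Insig2 thus stood closer together between genotypes than those of Insig1 did, a contrast that was not tested.

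Among 9 genes of sterol uptake and transport the median difference was 0.08 and 0 passed an unadjusted p of 0.05. Stard4, a carrier of cholesterol between membranes, differed by -0.16 (standard error 0.08, adjusted p = 0.455 from limma), and Tmem97, a membrane protein that binds the lysosomal transporter Npc1, by 0.15 (standard error 0.09, adjusted p = 0.513 from limma). This was the brighter probe set of Tmem97, and the dimmer one differed by 0.00 (standard error 0.09). Among 9 genes of sterol export and esterification the median was -0.05. Nr1h3, the sterol sensor LXR alpha, read 7.66, 7.80 and 7.78 on WT and 7.87, 7.95 and 8.03 on VAChT KD arrays, with no overlap. Its difference was 0.20 (standard error 0.08, adjusted p = 0.419 from limma), and it was the gene that was higher at the unadjusted p. Abcg1, an exporter of cholesterol and a target of LXR, differed by -0.13 (standard error 0.09, adjusted p = 0.535 from limma).

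In the branch that uses isoprenoids for products other than sterols, downstream of Idi1, the 10 genes had a median of 0.07 and 0 passed an unadjusted p of 0.05. Pdss2, which builds the side chain of ubiquinone, differed by 0.23 (standard error 0.12, adjusted p = 0.468 from limma), and Fntb, a subunit of the farnesyl transferase of proteins, by 0.14 (standard error 0.08, adjusted p = 0.502 from limma). Idi2, the second isomerase gene, was measured by a pair of probe sets that differed by -0.07 and -0.08. Their means, 4.89 and 4.91, were below the 95th percentile of the olfactory receptors, so that a change of Idi2 would be hard to see. Among 10 other genes of the Hsd17b family the median was -0.10, and Hsd17b1 and Hsd17b2, which convert estrogens, were the 2 genes lower at the unadjusted p. Hsd17b1 differed by -0.22 (standard error 0.07, adjusted p = 0.409 from limma) and Hsd17b2 by -0.22 (standard error 0.09, adjusted p = 0.412 from limma), both at a mean below the 95th percentile of the olfactory receptors. Hsd17b3, Hsd17b6, Hsd17b13 and Hsd17b14 had means below that percentile too, and differed by -0.14, -0.08, -0.12 and -0.19. Hsd17b4, Hsd17b10, Hsd17b11 and Hsd17b12 had means above it, and differed by 0.12, -0.04, 0.09 and 0.09. The negative median of the family thus rested on probe sets with signal near background. No gene of this family rose or fell at an adjusted p, and the highest difference in it, apart from Hsd17b7, was 0.12 (Hsd17b4). Without the arrays numbered 2 that of Hsd17b4 was 0.23, and Hsd17b12 differed by 0.34 (standard error 0.16, adjusted p = 0.478 from limma) in place of 0.09.

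**Figure D4:**
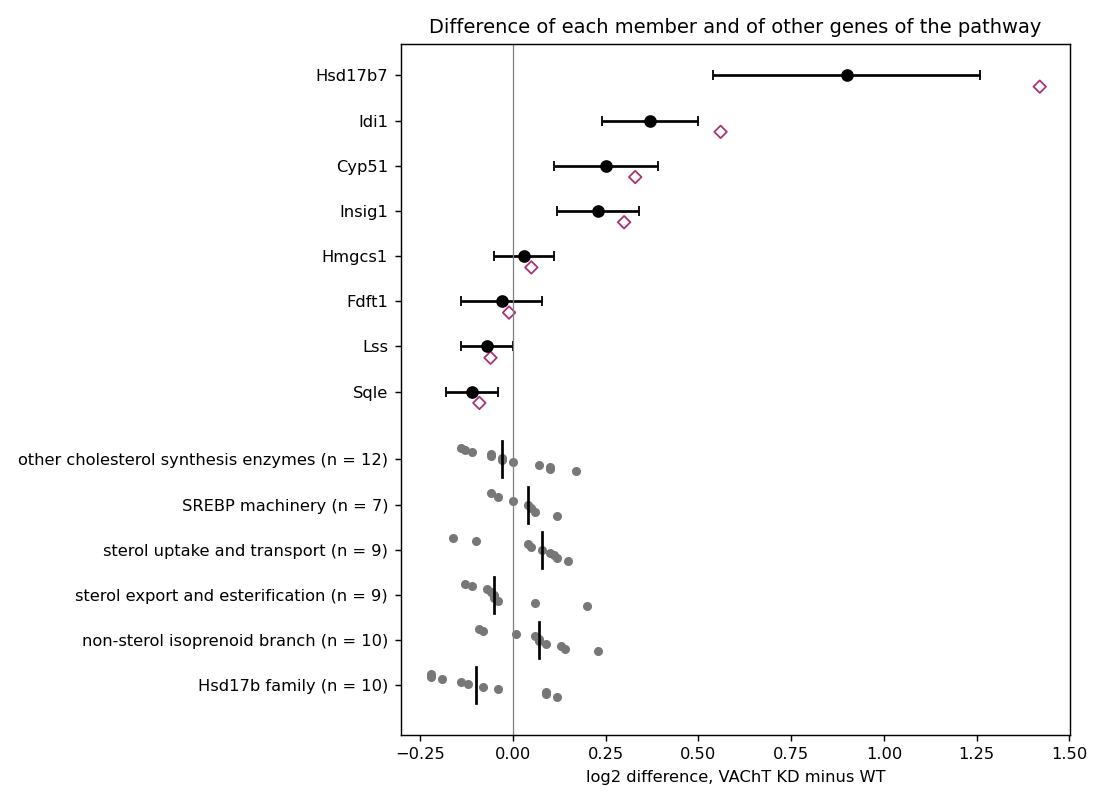
Log2 difference between genotypes, VAChT KD minus WT (horizontal axis), of the 8 genes with their standard error (black circles and bars, 3 arrays in each group) and without the arrays numbered 2 (open diamonds), above the 57 other genes in their 6 lists (grey circles, vertical lines at the median). The grey circles lie between -0.22 and 0.23, to the left of the black circles of Hsd17b7, Idi1 and Cyp51.

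Markers of other cells were read beside these values. The mean log2 signal of 7 adipocyte markers was 6.85 to 7.15 on WT and 6.75 to 6.96 on VAChT KD arrays, and 3 of the 7 were below the olfactory receptor percentile. The markers did not move together. Ucp1 of brown fat (7.41 beside 5.79 to 6.07 on the other arrays) and Plin1 were highest on WT 1, the array with the lowest Idi1, Cyp51 and Hsd17b7, whereas Adipoq, Retn, Cidec and Cidea were highest on VAChT KD 3, where these 3 genes were highest too. The means of 6 macrophage markers (7.90 to 8.12 on WT, 7.88 to 8.17 on VAChT KD), 5 fibroblast markers (9.81 to 9.92 and 9.70 to 9.89) and 5 endothelial markers (10.09 to 10.36 and 10.12 to 10.31) overlapped between the genotypes. Those of 6 markers of liver and steroid-making tissue were 5.95 to 6.14 and 5.86 to 6.01, with 4 of the 6 below the olfactory receptor percentile. The part of adipocyte RNA and of the lower cardiomyocyte markers on VAChT KD 1 in the differences of the 8 genes was not tested.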

How the data were processed

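Heart RNA of WT and VAChT KD mice was measured on 6 arrays, grouped and numbered by their labels. The authors summarised the probes with RMA in Partek, and the deposited values are log2 signals of 35556 probe sets. The genome build behind them is not given in the sources used here. Symbols came from the platform annotation: 21789 probe sets have 1 symbol, 1621 several and 12146 are unlisted, and the latter kinds were not named. For a gene with several probe sets the brightest was used, and of the 8 genes all are shown.

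Differences (VAChT KD minus WT) and standard errors were estimated without a filter in R 4.3.3 with limma 3.58.1 (lmFit, then eBayes), and p-values were adjusted over all probe sets by Benjamini-Hochberg. The precision is limited by 3 arrays in each group; an exact permutation test of 3 against 3, two-sided, cannot go below p = 0.1. The fit was tested on simulated data. The members, the 6 pathway lists and the marker lists were chosen with earlier results of these data known. Of the 69 genes on the pathway lists, 12 were not analysed here.

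The genes named were all members, the 2 with the smallest p in each pathway list, Slc18a3, Ogdhl and the 5 probe sets most like Idi1 and Hsd17b7. Other genes with values were picked by their role or after their values were seen. Promoters and chromosomes came from RefSeq tables of GRCm38.p6. Alternatives were quantile normalization, median centring, other variance models, array weights, a replicate block, a filter on dim probe sets, averaged probe sets, other thresholds, and leaving out each array or both arrays numbered 2. RT-qPCR, protein and isoproterenol experiments were not analysed here.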

Additional observations from a re-analysis of the deposited data

How the results depend on the processing

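Of 150 alternatives over all results, 139 left the value within the spread between arrays or the count within its limit. Other variance models, the replicate block and the filter on dim probe sets cannot alter the estimated difference of a gene that is kept. Averaging cannot alter that of a gene with 1 probe set. Their agreement, counted here and below, was fixed in advance. The spread was each gene's own, 0.60 for Hsd17b7, so that both 0.54 and 1.42 counted as within it. Idi1 kept its sign in 15 of 15 alternatives (0.28 to 0.56), Hsd17b7 in 15 of 15 (0.54 to 1.42), Cyp51 in 15 of 15 (0.09 to 0.33) and Insig1 in 15 of 15 (0.14 to 0.32). Idi1 moved by more than its spread without both arrays numbered 2 (0.56). The median of the other 6 genes moved from 0.00 to 0.06 with each array centred on its median, to 0.13 with dim probe sets left out, which removes Sqle and Lss, and to 0.02 without both arrays numbered 2. With each array left out in turn it ranged from -0.01 to 0.02. Centring on the median moved the median of all probe sets by 0.07 and a further quantile normalization by 0.00. The count of other pathway genes past both thresholds was 0 in 16 alternatives and 3 at an unadjusted p of 0.05 with no fold threshold. Apart from the effects of a changed threshold or a smaller set of genes, the cause was not tested. Deviations of same-numbered arrays correlated at 0.0573, -0.125 and 0.133, and those of differently numbered arrays at -0.205 to 0.175. The replicate numbers thus showed no clear pairing, and a shared batch was not tested. Each number holds an array of each genotype, so the replicate block could not change a difference. Those of Idi1 (0.37), Hsd17b7 (0.90) and the median of the other 6 (0.00) were the same by design. The block can change p-values, and with it 0 other pathway genes were called. Signal close to background limits what can be said of Lss and Sqle, and to a lesser degree of the size of the differences of Idi1 and Cyp51.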
